A study of Homo sapiens with 8 samples.

Results

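MYC, PVT1 and 7 genes that govern entry into the cell cycle or arrest of it (CDKN1A, CDKN1B, CDKN1C, CDKN2B, CDC25A, CCND1 and CDK6) were followed by chromatin accessibility during TGFβ1 treatment of MCF10A cells, a human mammary epithelial line that is immortal but does not form tumours. The peaks of 4 deposited lists were merged wherever they shared 1 bp or more, which gave 126658 regions, and those that overlapped the GENCODE gene body of a member or the 100 kb on either side of it were kept. These were 231 regions, with 69 at PVT1, 44 at CDK6, 33 at CDKN1A, 26 at CDKN1C, 25 at MYC, 21 at CDKN1B, 17 at CDC25A, 13 at CCND1 and 0 at CDKN2B. The windows of MYC and PVT1 shared 17 regions, which were counted once in sums over genes. ATAC-seq, in which a transposase tags DNA that nucleosomes leave accessible, had been carried out on cells given solvent (BSA in PBS) or 5 ng/ml TGFβ1 for 6, 24 or 72 h, with 2 libraries per condition and 8 in all. All groups grew in the same medium with horse serum, EGF, insulin, hydrocortisone and cholera toxin, and the labels put the solvent samples at time 0, whereas the study describes its control plate as kept in solvent for 72 h and all plates as harvested at the same time after seeding. Each list had been called by the authors on both libraries of a condition together. No difference given here therefore has a replicate check, and no test across conditions was possible. Regions that the fixed rule did not name are marked below as picked after their values had been seen. Those at first annotated gene starts and those with a rare motif were also outside the rule and carry no mark.

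TGFβ halts the proliferation of epithelial cells through a cytostatic programme in which SMAD proteins, with partners such as FOXO and SP1, act on a small set of genes. In its textbook form the inhibitors p15 (CDKN2B) and p21 (CDKN1A) are induced, whereas MYC and the phosphatase gene CDC25A are repressed. Cyclin D1 (CCND1) with CDK6 or CDK4 phosphorylates the retinoblastoma protein and thereby frees E2F factors, p27 (CDKN1B) and p57 (CDKN1C) restrain cyclin-CDK complexes, and the MYC protein, paired with MAX, binds E-boxes of growth genes. PVT1 is a long non-coding RNA gene beside MYC whose introns hold enhancers, and its promoter is known to compete with that of MYC for them.

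The quantity followed was the AUC of the peak caller, the area under its significance curve above a threshold, summed over the peaks of a region in each list. The AUC rises with depth and with peak width, and since the lists hold no reads the depth is unknown. Over the series 82493 regions had a peak in solvent and 106341, 115956 and 113890 at 6, 24 and 72 h. Log2 ratios to solvent were scaled by subtracting the median log2 ratio at regions within 3 kb of a transcription start site (TSS), with values of 0.44, 0.38 and 0.25 for the 6, 24 and 72 h lists. On that scale the median over all regions shared with solvent was 0.06, 0.12 and 0.15, and at 72 h without scaling it was 0.39. A region was called gained when it had a peak in a TGFβ1 list and none in solvent, lost in the opposite case, and strengthened or weakened when its scaled AUC differed from solvent by at least 2-fold. A list holds only peaks with an AUC above 200, so a missing peak can be a weak one. As a check of the cell type, 8 of 8 mammary epithelial markers (KRT5, KRT14, KRT17, TP63, CDH1, EPCAM, ITGA6 and LAMB3) had a peak within 500 bp of a TSS in every list. Of 9 markers of blood, endothelium, liver, neuron and muscle, only PTPRC had one, at an internal start, absent in solvent and with an AUC of 515, 799 and 824 at 6, 24 and 72 h.

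To show the DNA of sites with higher signal under TGFβ1, the summit of the strongest peak with 100 bases on either side is given for 3 regions, picked from the named ones after their values had been seen. They comprise the region of largest 72 h AUC among those gained in all TGFβ1 lists, the region with the highest 72 h ratio of all windows, both at CDK6, and a gained region at CDKN1C that holds motifs of 2 of the searched kinds. Sequences are from the plus strand of GRCh38, and capitals mark an AP-1 motif (TGACTCA or TGAGTCA) or an E-box (CACGTG).
CDK6, gained region, chr7:92641961-92642161: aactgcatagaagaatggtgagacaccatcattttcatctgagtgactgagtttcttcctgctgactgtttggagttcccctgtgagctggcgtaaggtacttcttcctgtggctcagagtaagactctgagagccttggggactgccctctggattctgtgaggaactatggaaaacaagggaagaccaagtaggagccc
CDK6, highest ratio, chr7:92731383-92731583: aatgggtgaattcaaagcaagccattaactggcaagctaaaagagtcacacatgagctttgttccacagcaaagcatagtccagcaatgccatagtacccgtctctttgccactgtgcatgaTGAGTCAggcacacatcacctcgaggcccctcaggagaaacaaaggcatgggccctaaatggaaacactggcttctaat
CDKN1C, gained region, chr11:2844114-2844314: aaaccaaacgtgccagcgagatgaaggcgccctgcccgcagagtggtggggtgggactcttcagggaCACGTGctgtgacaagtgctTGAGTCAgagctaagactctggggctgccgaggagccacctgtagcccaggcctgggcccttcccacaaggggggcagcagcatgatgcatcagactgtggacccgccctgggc

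Over the 8 genes with regions, more regions were gained than lost in each TGFβ1 list, and 37 of the 46 regions gained at 72 h (80.4%, beside 79.1% of all gained regions) were distal, meaning more than 3 kb from any TSS. Of the 231 regions, 160 (69.3%) had a peak in every list, against 62.6% of all regions, and 36 (15.6%, against 14.3%) had a peak in all 3 TGFβ1 lists and none in solvent. At 6 h 45 of 217 regions (20.7%) were gained, beside 23.0% of all regions. The values were 54 of 221 (24.4%) beside 30.2% at 24 h, and 46 of 206 (22.3%, 95% Wilson interval 17.2 to 28.5) beside 30.1% at 72 h. The 72 h interval, which covers counting error only, did not reach the share over the whole series. It did so with lists of equal length (13.3%, 8.97 to 19.4, beside 15.6%), with an AUC of at least 400 (25.3%, 19.4 to 32.3, beside 31.7%) and with windows of 50 kb (24.8%, 18.6 to 32.3, beside 30.1%).

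Losses were few, and their share at 72 h was above that of the series as a whole, though not beyond counting error under every setting. At 6 h 1 of 173 solvent regions (0.578%) had no peak, beside 0.714% of all regions. The counts were 6 (3.47%) beside 1.86% at 24 h and 13 (7.51%, 4.44 to 12.4) beside 3.44% at 72 h. Of these 13 regions 11 were distal (10.4% of 106 distal solvent regions, beside 3.69% of all distal ones), and their solvent AUC had a median of 265 and a range from 206 to 854, against a list threshold of 200. PVT1 held 5 of them, MYC, CDKN1C, CCND1 and CDK6 held 2 each and CDKN1A held 1, with 1 region counted for both MYC and PVT1. With lists cut to equal length, 17.3% (12.4 to 23.7) of the members' regions were lost at 72 h beside 13.5% of all regions, a difference within the counting error.

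Shifts of 2-fold or more among regions present in both lists were about as frequent as in the whole series. Strengthened regions numbered 5 of 172 (2.91%, beside 3.45% of all) at 6 h, 16 of 167 (9.58%, beside 8.37%) at 24 h and 15 of 160 (9.38%, beside 10.5%) at 72 h. Weakened regions numbered 0 of 172 at 6 h (upper Wilson limit 2.18%, beside 0.215% of all regions), 4 of 167 (2.4%, beside 0.935%) at 24 h and 4 of 160 (2.50%, 0.976 to 6.25, beside 1.23%) at 72 h. The Wilson intervals of these shares included the share over all regions, except that of the weakened regions at 24 h (0.935 to 6.00). Its lower limit met the share over all regions only after rounding. Per covered base 3 of the 160 regions (1.88%) were strengthened and 1 (0.625%) weakened at 72 h. The plot of regions with a peak by list shows how many each gene had, with the 6 h count above that of solvent at all 8 genes. The whole series rose too, from 82493 to 106341 regions.

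MYC (chromosome 8, 127735434 to 127742951, plus strand) had a strong promoter peak in every list. The promoter region, chr8:127733796-127736610, spans the first exon of MYC and the start of the antisense transcript CASC11. Its AUC of 10527 in solvent became 12312, 10883 and 10882 at 6, 24 and 72 h, and the solvent value lay above that of 99.8% of all solvent regions. The scaled log2 ratio was -0.22, -0.33 and -0.20, while without scaling it was 0.05 at 72 h, so that its direction depends on the scaling. Peaks covered 2787 bp of it in solvent and 2508 bp at 72 h, and the AUC per covered base gave a scaled log2 ratio of 0.02.

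Within MYC and just beyond it, 4 regions had lower values than solvent at 72 h. The region over the last exon, 7.4 kb from the start, had an AUC of 6116 in solvent and 5837, 4561 and 5025 at 6, 24 and 72 h (scaled log2 ratio -0.51, -0.80 and -0.53). Unlike the promoter, it was below solvent in the AUC as deposited at all 3 times. The regions 10.0 and 25.2 kb from the start, intergenic, had ratios of -0.83 and -0.59 at 72 h, and that at 4.4 kb, within the gene, had -0.67. These 4 regions were picked after their values had been seen. All 4 regions in the gene body were below 0 at 6 h, and 3 of the 4 at 24 and 72 h, the exception being a region at 2.8 kb with 0.03 at 72 h. None of them was called weakened, since the fold stayed under 2.

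Further out, 3 of the 25 regions of the MYC window (12.0%, beside 14.3% of all) were gained in all TGFβ1 lists, and 5 of 21 regions with a peak at 72 h (23.8%, beside 30.1%) were gained. The 2 upstream sites of largest solvent AUC, in exons of ENSG00000286010 66.5 and 64.4 kb before MYC, had an AUC of 9565, 11744, 10905 and 10253 and of 2607, 3078, 2907 and 2847 in solvent, 6, 24 and 72 h, with scaled log2 ratios at 72 h of -0.15 and -0.12. These were picked after their values had been seen, as was a region in CASC11. The latter, 48.0 kb before MYC, had 2273, 1892, 1642 and 2059, and its ratios were -0.71, -0.85 and -0.39. The region of highest ratio in the window lay 97.8 kb downstream in an intron of PVT1, with an AUC of 272, 530, 684 and 696 and a ratio of 1.11, which was 0.83 per covered base. The gained region of largest 72 h AUC, in an intron of PVT1 too, had 230, 610 and 491 at 6, 24 and 72 h. The largest solvent region lost at 72 h, between the genes 52.8 kb from the MYC start, had 429 in solvent and 519 at 6 h and no peak in the later lists. Over the 16 regions shared with the solvent list at 72 h, the median ratio was -0.13 (0.15 over all shared regions), with 6 above 0 and 10 below. At 6 and 24 h the medians were -0.16 and -0.21 (0.06 and 0.12 over all). The 72 h median was 0.11 without scaling (0.39 over all shared regions) and 0.01 per covered base (0.06 over all). Its sign thus depends on the setting, while it stayed below the median of the series in both.

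**Figure D1:**
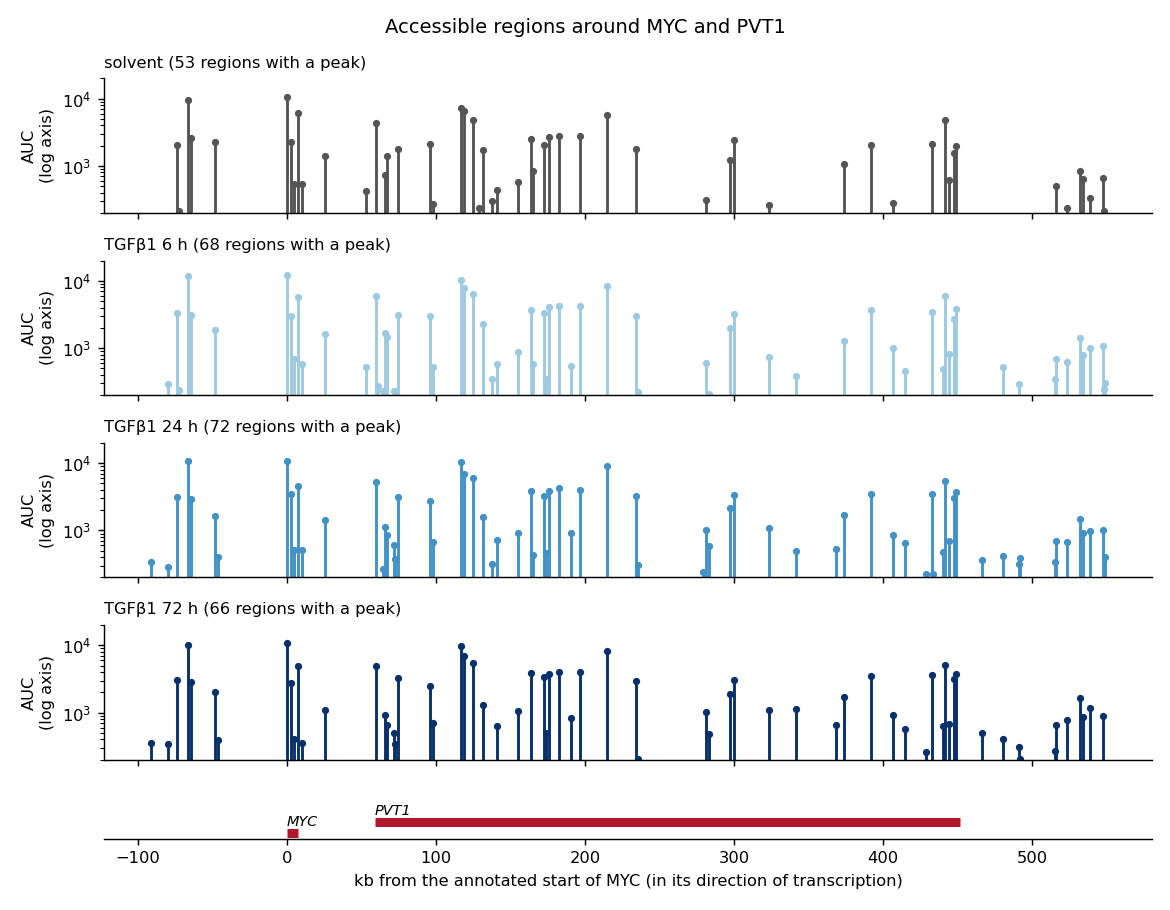
AUC of each region (log axis starting at the list threshold of 200) against its distance from the start of MYC in kb, with 1 panel per peak list and the gene bodies of MYC and PVT1 as bars below. Of all regions in the joint window, 53 had a peak in solvent and 68, 72 and 66 at 6, 24 and 72 h, and the tall peaks at MYC and in the first part of PVT1 were present in all 4 panels. Over the whole series the numbers were 82493, 106341, 115956 and 113890.

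PVT1 (chromosome 8, 127794526 to 128187101, plus strand) was the member with the most regions, 49 of its 69 within the gene body. Its window was also the longest, at 593 kb against 203 to 432 kb for the other members. At its first annotated start the region chr8:127794045-127796142, which includes MIR1204, had an AUC of 4344, 6065, 5204 and 4951 (scaled log2 ratio 0.04, -0.12 and -0.06). The PVT1 start with the largest solvent AUC was an internal one, 59.9 kb downstream, at 6547, 7723, 7001 and 6955 with ratios of -0.20, -0.28 and -0.16. Neither start passed 2-fold at any time, and the -0.16 of the internal start became 0.09 without scaling.

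At 72 h most shared regions of the series were above 0, a ratio of -0.004 standing at percentile 35.6, and so were most within the body of PVT1. There, 9 of 49 regions (18.4%, beside 14.3% of all) were gained in all TGFβ1 lists, and of 31 regions shared with solvent at 72 h 24 were above 0 and 7 below, with a median of 0.31, beside 0.27 over all distal regions of the series. The region with the highest ratio, chr8:128058911-128059362, an intronic site 265 kb from the start, had an AUC of 260, 730, 1085 and 1103 in solvent, 6, 24 and 72 h (ratio 1.05, 1.68 and 1.84), above those of 98.3% of all shared regions at 72 h. It was strengthened at all 3 times by summed AUC but at none per covered base (0.82, 0.71 and 0.82). The gained region of largest 72 h AUC, 282 kb from the start, had 392, 495 and 1127 in the 6, 24 and 72 h lists, with the larger step between 24 and 72 h.

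The weakened region of this window lay near the start of PVT1. This site, chr8:127802200-127803102, 8.1 kb from the PVT1 start and 67.2 kb from that of MYC, had an AUC of 1418, 1480, 867 and 652 and ratios of -0.38, -1.09 and -1.37, which was at percentile 0.512 of all shared regions at 72 h. Its covered width differed as well, with 883 bp covered in solvent, 903 bp at 6 h, 320 bp at 24 h and 294 bp at 72 h, and per covered base the ratio at 72 h was 0.29, the opposite direction. A second site 106 kb from the start had 854, 586 and 427 and no peak at 72 h, making it the largest solvent peak lost in any of the windows. In the whole PVT1 window 6 of 43 shared regions were strengthened and 1 weakened at 72 h, beside 10.5% and 1.23% of all regions.

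CDKN1A (chromosome 6, 36676460 to 36687337, plus strand), which encodes p21, had its strongest region inside the gene. This region, the largest by solvent AUC at one of its annotated starts, chr6:36678137-36681199, spans internal starts of CDKN1A and the lncRNA DINOL and had 6165, 9572, 8742 and 8458 in solvent, 6, 24 and 72 h. Its scaled log2 ratio was 0.19, 0.12 and 0.21, under 2-fold, and 0.96 at 72 h with the largest peak in place of the sum. The region held 2 peaks in solvent and 1 at 72 h. Among the 8 promoter regions, each chosen by largest solvent AUC, it alone was above 0 at all 3 times. The CDK6 region at the annotated start, not so chosen, had 0.45, 0.42 and 0.46. At the first annotated start of CDKN1A the region was much smaller, with 665, 902, 729 and 630 (ratio 0.00, -0.25 and -0.32). Of the 5 regions in the gene body, 4 were above 0 at each time, with medians of 0.19, 0.12 and 0.10.

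In the flanks of CDKN1A 3 of 22 shared regions were strengthened and 2 weakened at 72 h, beside 10.5% and 1.23% of all shared regions. The lowest ratio of all the windows was at an intergenic region 13.4 kb upstream, chr6:36662851-36663290, whose AUC was 813, 831, 685 and 223 (ratio -0.41, -0.63 and -2.11), the largest step lying between 24 and 72 h. Peaks covered 427 bp of it in solvent and 182 bp at 72 h, and per covered base its ratio was -0.81, which is under 2-fold. A second weakened region, in CPNE5, stood at 667 and 805 and then at 230 and 210 (-1.91 at 24 and 72 h), while per covered base its 72 h ratio was 0.07. Higher values were found at 92.9 kb (344, 795, 1209 and 1188, ratio 1.54 at 72 h and 0.70 per covered base), in an intron of the neighbouring gene RAB44 (1.12) and at CPNE5 (1.23). These 3 were the strengthened regions of the window, and all lay inside other genes. Gained in all TGFβ1 lists were 3 of 33 regions of the window (9.09%, beside 14.3% of all). The one with the largest 72 h AUC, 61.2 kb upstream, had 679, 479 and 543. Another lay at the lncRNA PANDAR 1.3 kb before CDKN1A, at 212, 269 and 360. PANDAR, like the CPNE5 and RAB44 sites, was picked after values had been seen. The only region lost at 72 h, 48.4 kb upstream, had 258, 375 and 367 before.

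CDKN1B (chromosome 12, 12685498 to 12722369, plus strand), which encodes p27, had no region strengthened or weakened at any time. It had 16 regions shared with solvent at each time, beside shares over all regions of 10.5% strengthened and 1.23% weakened at 72 h. Its promoter region, chr12:12716344-12718381, lay over the coding exons, 31.9 kb downstream of the first annotated start, at which there was no region. The promoter region had an AUC of 4052, 5418, 4852 and 4056 and a ratio of -0.02, -0.12 and -0.25, which became 0.00 at 72 h without scaling and 0.38 per covered base. That was the lowest ratio of the window at 72 h. The peaks there covered 1985 bp in solvent and 1348 bp at 72 h. None of its 16 solvent regions was lost, beside 3.44% of all solvent regions at 72 h. Gained in all TGFβ1 lists were 4 of 21 regions (19.0%, beside 14.3% of all). The strongest lay at DDX47, an RNA helicase gene 135 kb from the first annotated start of CDKN1B, with 518, 1223 and 1338. The highest ratio, 0.77 at 72 h, was in an intron of APOLD1, with an AUC of 224, 515, 474 and 454.

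CDKN1C (chromosome 11, 2883213 to 2885775, minus strand), which encodes p57 and lies in an imprinted cluster, had the lowest promoter ratio of the members at 72 h by summed AUC. MYC was lower with the largest peak (-0.57 against -0.45), its promoter region holding 1 peak in solvent and 3 at 72 h. CDK6 was lower per covered base (-0.38 against -0.35). The CDKN1C promoter region, chr11:2884477-2886088, had an AUC of 2315, 3220, 3007 and 2051. Its ratios were 0.03, 0.00 and -0.42, the last at percentile 6.37 of all shared regions, and at 72 h it was also below 0 without scaling (-0.18). In the whole window 15 of 21 shared regions were below 0 at 72 h and 13 of 23 at 6 h. In the series ratios of -0.004 at 72 h and -0.002 at 6 h stood at percentiles 35.6 and 40.6. The medians over all shared regions were 0.15 and 0.06. At 72 h the median was 0.27 over distal regions and 0 over the others, which set the scale. Of the 26 regions of the CDKN1C window 14 were within 3 kb of a TSS. An intronic region of SLC22A18, 18.6 kb upstream, had 852, 951, 948 and 431 (-0.28, -0.23 and -1.23). Another in that gene, 38.8 kb upstream, had 578, 496 and 469 and was lost at 72 h. The gained region printed above, 41.5 kb downstream in an intron of KCNQ1, had 544, 439 and 536. Strengthened were an intronic region of KCNQ1 50.5 kb downstream, with 345, 1059, 1336 and 866 (1.18, 1.57 and 1.08), and a region at NAP1L4 66.1 kb upstream, with 311, 709, 899 and 950 (0.75, 1.15 and 1.37, at 72 h 0.44 per covered base). The KCNQ1 region, like that at KCNQ1-AS1 24.9 kb downstream (214, 568, 906 and 402), had its largest AUC at 24 h. These 2 regions were picked after their values had been seen.

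CDKN2B (chromosome 9, 22002903 to 22009305, minus strand), which encodes p15, had no peak in any list. The stretch without a merged region ran from 21854973 to 22158389, which is 303 kb, and measured 303 to 304 kb in each list taken alone. It holds the starts of CDKN2A and CDKN2B and later starts of MTAP, as well as CDKN2B-AS1. The closest regions on either side lay 148 and 149 kb away from the gene. Of 19970 protein-coding genes, 366 (1.83%) had no region within 100 kb, and of 126635 stretches between neighbouring regions 533 were as long or longer, the median being 8.6 kb. MCF10A is known as a line that has lost CDKN2A and CDKN2B by deletion. DNA copy number was not measured here, and its part in the missing peaks was not tested.

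CCND1 (chromosome 11, 69641156 to 69654474, plus strand), which encodes cyclin D1, had a promoter region, chr11:69640598-69641616, with an AUC of 2073, 2604, 2323 and 1942. Its ratios were -0.11, -0.22 and -0.34, and at 72 h without scaling -0.09. All 3 regions in the gene body were below 0 at 72 h, whereas without scaling the other two were at 0.01 and 0.13. A pair of intergenic regions 53.3 and 52.7 kb upstream, with CCND1 as the closest gene, was higher at each time, at 940, 2132, 2674 and 2433 for the first (0.74, 1.13 and 1.12, at 72 h 0.79 per covered base) and at 619, 1291, 1729 and 1422 for the second (0.62, 1.10 and 0.95). The second was chosen after its values had been seen. A weak solvent region 4.6 kb before the start, at 315, 312 and 238, had no peak at 72 h. The single region gained in all TGFβ1 lists (7.69% of 13, beside 14.3% of all), 42.9 kb downstream, had 274, 405 and 340.

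CDK6 (chromosome 7, 92604921 to 92836573, minus strand) had a peak at both regions of its start in every list. The first, at the annotated start, had 1831, 3392, 3191 and 2989 (ratio 0.45, 0.42 and 0.46), and the second, 3.0 kb inside the gene and with the larger solvent AUC, had 3955, 5305, 4399 and 3998 (-0.02, -0.23 and -0.23). Peaks covered 1535 bp of the first region in solvent and 2323 bp at 72 h, and per covered base its ratio was -0.07.

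In the CDK6 gene body 6 of 35 regions (17.1%, beside 14.3% of all) were gained in all TGFβ1 lists. Of 23 shared regions there 17 were above 0 at 72 h, as were most of the series. Their median was 0.26, beside 0.27 over all distal regions. The region of highest ratio in any window, chr7:92730838-92731615, 105 kb from the start, had an AUC of 218, 714, 1115 and 1115 and ratios of 1.27, 1.98 and 2.11, which is 4.32-fold at 72 h and above 99.1% of shared regions. Peaks covered 162 bp of it in solvent and 549 bp at 72 h, and the 72 h ratio was 0.42 per covered base, under 2-fold, 1.58 by the largest peak and 1.39 against regions of like solvent AUC. It is one of the sequences printed above and has an AP-1 motif near its summit. The gained region at 194 kb, at the start of the gene ENSG00000287932 within CDK6 and likewise printed above, had 464, 1258 and 1839 at 6, 24 and 72 h, the largest 72 h AUC of any gained region in the windows. Past the gene's end, 268.9 kb from the start in FAM133B, another gained region had 525, 1082 and 1151 and was chosen after its value had been seen. Both had a larger AUC at each later time, and the 2 regions lost at 72 h had a solvent AUC of 319 and 265.

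**Figure D2:**
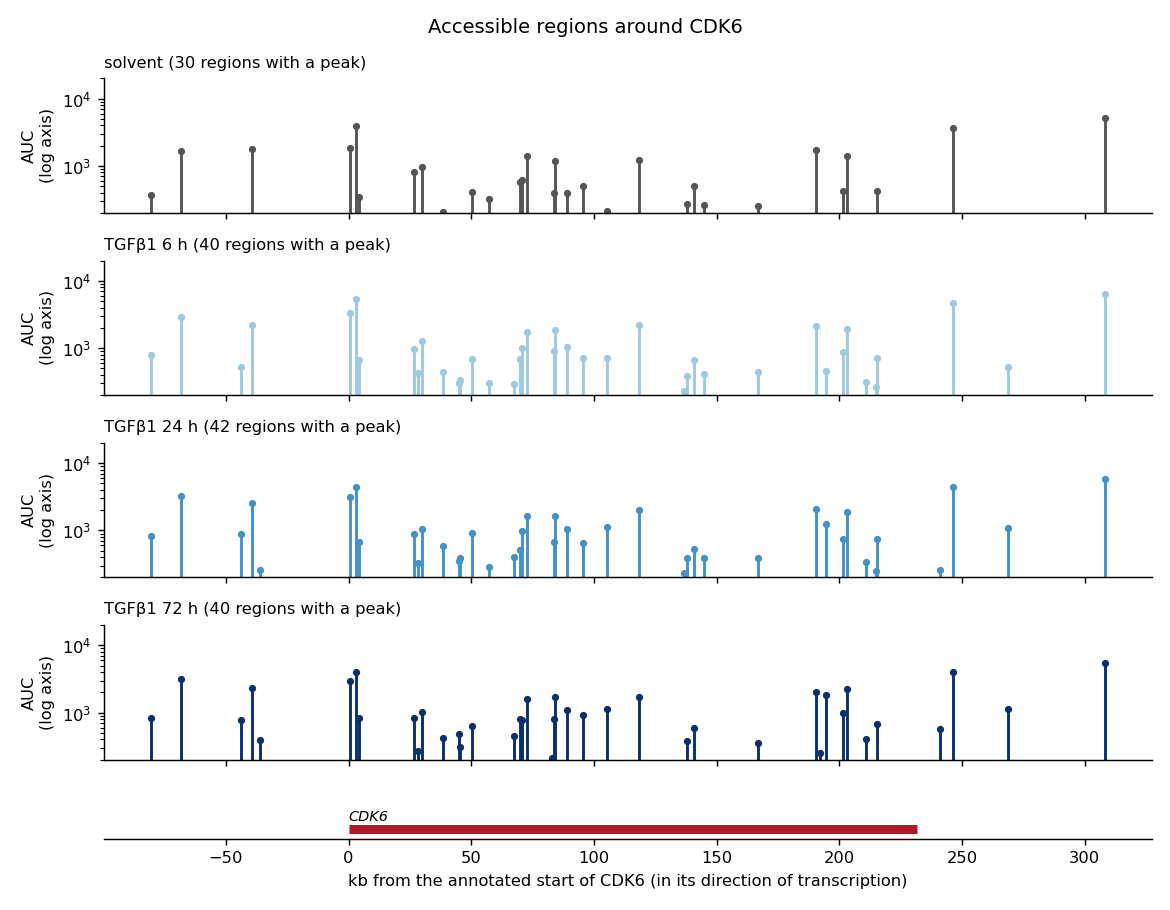
AUC of each region (log axis starting at the list threshold of 200) against its distance from the start of CDK6 in kb along the direction of transcription, with 1 panel per peak list and the gene body as a bar. Peaks were present in 30 regions in solvent and in 40, 42 and 40 at 6, 24 and 72 h. From solvent to 72 h the count went from 25 to 31 in the gene body and from 5 to 9 in the flanks. Over the whole series it went from 82493 to 113890.

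CDC25A (chromosome 3, 48157146 to 48188417, minus strand) had 1 region within its body, the promoter region chr3:48187102-48188914, with an AUC of 4440, 5666, 5249 and 4873. Its ratios of -0.09, -0.14 and -0.11 were close to 0, and at 72 h without scaling the value was 0.13. None of the 11 shared regions of the window passed 2-fold and none was lost. Over all regions 10.5% were strengthened, 1.23% weakened and 3.44% lost at 72 h. The highest ratio at 72 h, 0.39, was at an intergenic region 33.2 kb from the start, past the gene's end (859, 1167, 1455 and 1338). The lowest, -0.54, belonged to a region 6.3 kb upstream (620, 819, 649 and 506). Gained in all TGFβ1 lists were 4 of 17 regions (23.5%, beside 14.3% of all). The strongest, intergenic and 63.0 kb downstream, had 501, 749 and 1012.

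Set side by side, none of the 8 promoter regions passed 2-fold at any time. At 72 h their scaled log2 ratios were 0.21 at CDKN1A, -0.11 at CDC25A, -0.16 at PVT1, -0.20 at MYC, -0.23 at CDK6, -0.25 at CDKN1B, -0.34 at CCND1 and -0.42 at CDKN1C. Without replicates neighbours in this order cannot be told apart. Without scaling only CDKN1C and CCND1 were below 0. Where the first annotated start lay in another region, the scaled 72 h ratio there was 0.46 at CDK6, -0.06 at PVT1 and -0.32 at CDKN1A. CDKN1B had no region within 500 bp of its first annotated start, and its promoter region lay 31.9 kb downstream of it. The median over all 16441 shared regions within 500 bp of a protein-coding TSS was -0.07 (36.3% above 0), and 2.48% of these were strengthened and 0.602% weakened, none of them a member's promoter.

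**Figure D3:**
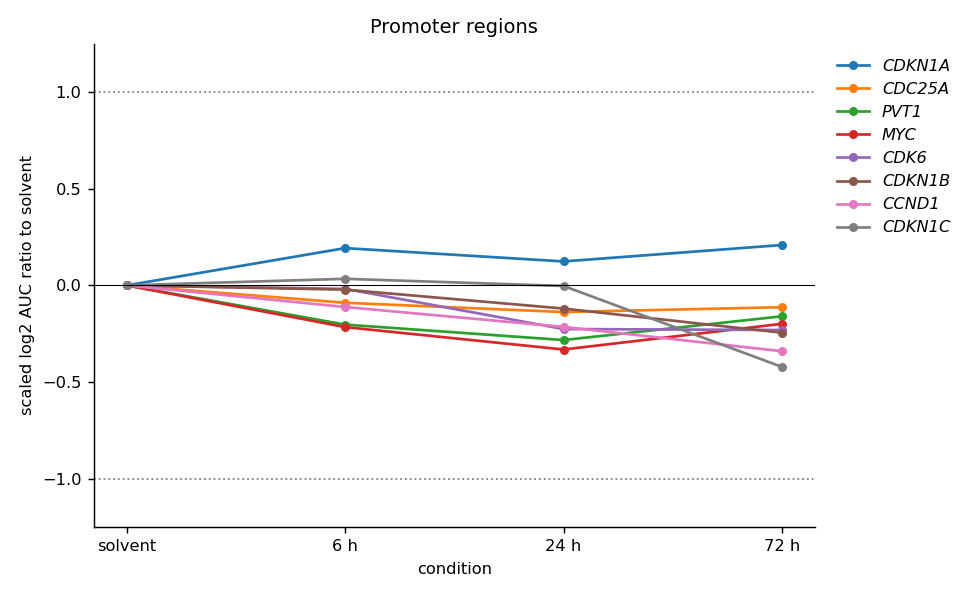
Scaled log2 AUC ratio to solvent (vertical axis, solvent set to 0) of the promoter region of each of 8 genes over the conditions (horizontal axis, not to time scale), each point being 1 peak list against solvent, with dotted lines at 2-fold. The 72 h values run from 0.21 for CDKN1A to -0.42 for CDKN1C, all within the dotted lines. Each gene is shown by its start region of largest solvent AUC, so the regions at the first annotated starts of CDKN1A, PVT1 and CDK6 are not drawn. CDKN1B had no region at its first annotated start.

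Promoters of a wider list of genes were read in the same way. Of 38 further genes of the cell cycle, the MYC network and the factors of the cytostatic programme, 37 had a promoter region with a peak in every list, the exception being CDKN2A, which lies in the stretch without peaks. Strengthened were 0 and weakened were 0 at any time. Over all shared regions within 500 bp of a protein-coding TSS, 1.12%, 2.30% and 2.48% were strengthened at 6, 24 and 72 h. Weakened there were 0.0900%, 0.494% and 0.602%. The medians of the 37 were -0.09, -0.16 and -0.10, beside -0.04, -0.06 and -0.07 over all such regions. At 72 h 36.3% of all such regions were above 0, and 5 of the 37. The highest 72 h value was at ZBTB17, which encodes the MYC partner MIZ1, with an AUC of 2096, 4144, 4287 and 4242 and ratios of 0.54, 0.65 and 0.77. Among the MYC partners and antagonists, MXD3 had the lowest value at 24 h (-0.43), and MXD1, MXD4, MXI1 and MNT lay between -0.10 and -0.16 at 72 h. MYCN, a MYC relative with a weak promoter peak, had an AUC of 299, 718, 587 and 422 (0.82, 0.59 and 0.25). SMAD3, the transducer of the TGFβ signal, had 3992, 5594, 5219 and 5507 and a ratio of 0.22 at 72 h, while SMAD4 had 0.01 and SMAD2 -0.05. E2F1 to E2F5, RB1, RBL1 and RBL2 lay between -0.34 and 0.00 at 72 h.

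Over whole windows at 72 h the medians were 0.25 at CDK6, 0.25 at PVT1, 0.10 at CDKN1A, -0.03 at CCND1, -0.04 at CDKN1B, -0.06 at CDC25A, -0.13 at MYC and -0.15 at CDKN1C, beside 0.15 over all shared regions. CDK6 and PVT1 were the 2 genes above the median of the series, and neither was above the median of all distal regions, 0.27. Without scaling all 8 medians were above 0, from 0.10 to 0.50, beside 0.39 over all shared regions. Their order could not change, since scaling subtracts the same value from every region of a list. The 15 strengthened regions of the windows had a median solvent AUC of 331 against 862 for their regions present in all lists, and in the series as a whole these medians were 348 and 793. When each ratio was set against regions of like solvent AUC, the median of PVT1 was 0.28 and that of CDK6 0.06. With AUC per covered base the median was 0.12 at PVT1 and 0.02 at CDK6, beside 0.06 over all shared regions. The part of peak width and of weak solvent signal in these values was not tested.

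**Figure D4:**
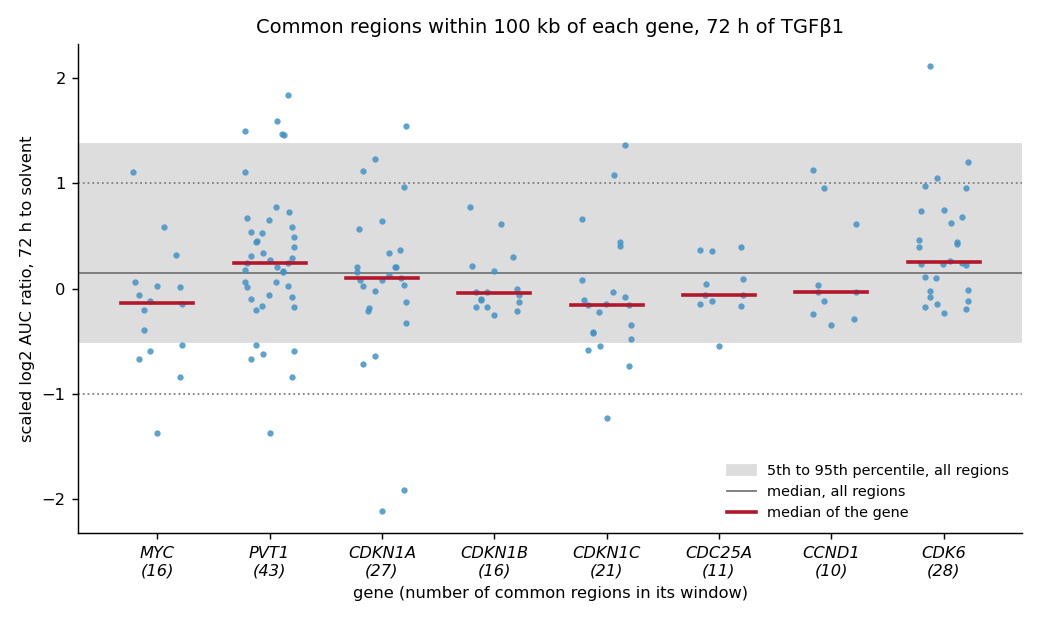
Scaled log2 AUC ratio of 72 h TGFβ1 to solvent (vertical axis) for every region shared by both lists in the window of each gene (horizontal axis, number of regions in brackets), with the gene's median as a red bar, the 5th to 95th percentile of all shared regions as a grey band and dotted lines at 2-fold. The highest point is 2.11 at CDK6 and the lowest -2.11 at CDKN1A. CDKN1B, CDC25A, CCND1 and CDK6 have no point below -1, beside 1.23% of all shared regions weakened.

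Motifs were counted on both strands within 100 bases of each region's strongest summit. The AP-1 motif was in 67 of the 231 regions (29.0%, beside 32.3% of all), and in 9 of the 15 regions strengthened at 72 h (60.0%, beside 47.2% of all strengthened regions) but in 0 of the 13 lost ones, beside 7.72% of all lost regions. By gene the share with an AP-1 motif ran from 14.3% at CDKN1B (3 of 21) to 39.1% at PVT1 (27 of 69), with 27.3% at CDK6 (12 of 44). The short SMAD element (CAGACA or its complement TGTCTG) was in 44 regions (19.0%, beside 18.5%), and the E-box in 10 (4.33%, beside 3.51%). Of the 36 regions gained in all TGFβ1 lists, 14 held an AP-1 motif (38.9%, beside 40.1% of all such regions) and 3 an E-box (8.33%, beside 2.56%). These shares describe letters in a window and were not tested.

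The rare motifs fell on 3 regions, shown here as stretches of 29 bases or fewer with the motif in capitals. The E2F motif (TTTGGCGC or TTTCCCGC, both strands) was in 2 of the 231 regions (0.866%, beside 0.524% of all) and the SMAD palindrome (GTCTAGAC) in 1 (0.433%, beside 0.295%). CDC25A is a textbook E2F target, and its motif lay 41 bp before the annotated start, in the promoter region whose AUC was 4440 in solvent and 4873 at 72 h.
CDC25A, E2F, chr3:48188444-48188472: ttcctagttgGCGCCAAAcggaatccacc
CDKN1B window, E2F, at the neighbouring gene APOLD1, chr12:12788978-12789004: gggggcagtgTTTCCCGCctgttgtag
CDKN1A, SMAD palindrome, chr6:36682879-36682907: gctgccaggtGTCTAGACttcagatcacc
The region with the SMAD palindrome, 6.3 kb inside CDKN1A, had an AUC of 3451, 4983, 4615 and 4171 in solvent, 6, 24 and 72 h, with scaled log2 ratios of 0.09, 0.04 and 0.03, and the APOLD1 region had 619, 780, 771 and 718 with ratios of -0.11, -0.06 and -0.03. None of the 3 regions moved by as much as 0.2 on the log2 scale.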

How the data were processed

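ATAC-seq of 8 MCF10A libraries (4 conditions, 2 replicates each) was analysed from 4 deposited peak lists, 1 per condition, whose condition was read from the names the authors gave them. Per the submitters' processing notes and the study's methods, the authors used Trimmomatic 0.38 for trimming and Bowtie2 2.4.5 for mapping to GRCh38 with inserts up to 1000 bp, removed duplicates (Picard) and mitochondrial reads, filtered with SAMtools 1.4.1 for a mapping quality above 30, and called peaks with Genrich 0.5 on both replicates jointly (AUC above 200, adjusted p under 0.01), leaving out ENCODE blacklisted regions. The deposited score of a peak is its AUC, with no scaling between lists stated by the authors. The authors also deposited −log10 q values of the summits, which no printed result uses.

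Peaks were merged, AUC was summed per region and list, and ratios were scaled as described above, with genes of GENCODE 44. The promoter region of a gene was the region of largest solvent AUC within 500 bp of one of its TSSs. Regions named for each gene were its promoter, the highest and the lowest 72 h ratio among regions with a peak in all lists, the largest by 72 h AUC of those gained at every time, and the largest by solvent AUC of those lost at 72 h. Regions at first annotated starts were added to these without a mark, and others are marked as picked after seeing values, save those of the motif search. Of 8 sequences extracted 3 are shown and the others are not reported here. A further 3 short ones were chosen after the motif search. The genes and lists were chosen with earlier results of these data known. The procedures were tested on simulated data. The work was done in Python 3.11.15 with pandas 2.3.3, numpy 2.4.6, matplotlib 3.10.9 and scipy 1.17.1. Replicates of a condition share 1 list, so no test was made, and Wilson intervals cover counting error only. Alternatives covered the AUC minimum, list length, window, overlap, scaling, measure and fold.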

Additional observations from a re-analysis of the deposited data

How the results depend on the processing

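No paired analysis was possible because each list pools both replicates of its condition, and leaving out a replicate was not possible for the same reason. Windows of 50 or 250 kb, scaling by all shared regions or by regions within 1 kb of a protein-coding TSS, and the largest single peak in place of the sum kept every share within its counting interval, although the share gained at 72 h then differed from that of all regions by less than counting error with windows of 50 kb. In the following, shares over all regions under the same setting stand in brackets where computed. With an AUC of at least 400 in every list, 0% (0.463%) of regions were lost at 6 h and 1.5% (1.5%) at 24 h, and 0% (1.64%), 3.05% (4.31%) and 3.15% (6.03%) were strengthened at 6, 24 and 72 h. With lists of equal length, 9.44% (9.19%), 10.6% (13.2%) and 13.3% (15.6%) were gained and 5.78% (5.96%), 12.1% (10.8%) and 17.3% (13.5%) lost at 6, 24 and 72 h, and 0.658% (0.425%) were weakened at 24 h. When peaks had to share 50% of each other's length, 29.1% were gained at 72 h and 5.20%, 8.67% and 15.6% lost. Per covered base, 1.16% (0.840%), 2.4% (2.51%) and 1.88% (3.11%) were strengthened, and 0.599% (0.484%) and 0.625% (0.630%) weakened at 24 and 72 h. Without scaling 14.0% (12.6%) were strengthened at 6 h. At 1.5-fold, 13.4% (11.7%) and 20.0% (22.9%) were strengthened at 6 and 72 h, and 6.59% (3.22%) and 6.88% (3.90%) weakened at 24 and 72 h. Set against regions of like solvent AUC, an alternative added after seeing the data, 0.581% (1.58%), 2.99% (3.39%) and 3.12% (4.72%) were strengthened. At 72 h the share of lost regions was above that of all regions in every setting with a value for both, but with an AUC of at least 400 (4.51%, interval 2.08 to 9.49, beside 2.94%) and with lists of equal length the interval included the share of all regions.

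Without scaling, the 72 h medians were 0.11 at MYC, 0.49 at PVT1, 0.35 at CDKN1A, 0.20 at CDKN1B, 0.10 at CDKN1C, 0.19 at CDC25A, 0.21 at CCND1 and 0.50 at CDK6 (0.39 over all shared regions), and per covered base that of CDK6 was 0.02 (0.06 over all). The weakened region in the first part of PVT1, also the lowest of the MYC window, had 0.29 per covered base and so turned direction, as its covered width shrank. Of 119 values of named regions under the alternatives, 76 stayed within 0.2 of the reported value, 41 moved further and 2 turned, both being this region, counted for MYC and for PVT1. Among these, all 21 values moved without scaling and all 21 stayed with scaling by all shared regions. Those outcomes were fixed, since the 2 settings shift every 72 h ratio by the same 0.25 and 0.15. Values under 2-fold that passed 0 are counted among those that stayed or moved. Depth limits what the lists can show, since a region below their AUC threshold is absent from them.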
